A study of Mus musculus with 2 samples.

Results

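The MYC, MAX and MXD network was described in wild-type splenic B cells that carried both IgM and IgD on their surface. Its members were taken as the probe sets annotated to Myc, Mycn, Max, Mxd1, Mxd3, Mxd4, Mxi1 or Mnt alone, which gave 17 of 22626 gene probe sets and 8 of 12393 genes. The study was designed to compare wild-type cells with cells deleted for SRF (serum response factor), which drives immediate early and cytoskeletal genes. Here 2 arrays were used, both of primary cells without genetic modification, 1 array per sample, sorted by flow cytometry from spleen, and SRF-deficient cells were not analysed here. No treatment was given in the labels, and neither the strain, the age nor the number of mice behind a sample. The names replicate 1 and replicate 2 follow accession order. Both belong to the same group, so every difference below is between samples of a single kind, no test between conditions could be made, and no p-value is given. The spread between the samples may be technical.

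MYC is a basic helix-loop-helix leucine zipper protein that binds E-box DNA only as a dimer with MAX and activates genes of ribosome synthesis, metabolism and cell division. MXD1, MXD3, MXD4, MXI1 and MNT compete for MAX, bind the same sites and recruit the SIN3 and histone deacetylase corepressor. In B cells MYC is low at rest and is induced as an immediate early gene when the antigen receptor is engaged, and the MXD proteins are best known from cells that have stopped dividing.

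The DNA element that this network binds was looked for in the members' own promoters, which the choice of members did not use. RefSeq promoter windows on GRCm38.p6, each running from 250 bases before to 50 bases after an annotated start, were matched for 7 of the 8 members by symbol, all but Myc, and gave 9 windows, 3 of them for Mxi1. The promoter of Myc was not analysed here. The canonical E-box CACGTG, which reads the same on both strands, stood in 3 windows of 3 genes, Max, Mxd4 and Mnt. Among all 32851 windows of this length 7.15% held it, or 8.09% of 27025 genes. The CArG box, the element bound by SRF, was searched on both strands and stood in 0 of the 9 windows, against 1.63% of all windows. The member windows were from 56% to 76.7% GC, and the windows set beside them were not matched for GC content. The windows that hold an E-box are printed below because they show where it lies, with the E-box in capitals and the gene's strand given 5′ to 3′. They are Max at chr12:76962199-76962498, minus strand, Mxd4 at chr5:34187661-34187960, minus strand, and Mnt at chr11:74830674-74830973, plus strand.
Max: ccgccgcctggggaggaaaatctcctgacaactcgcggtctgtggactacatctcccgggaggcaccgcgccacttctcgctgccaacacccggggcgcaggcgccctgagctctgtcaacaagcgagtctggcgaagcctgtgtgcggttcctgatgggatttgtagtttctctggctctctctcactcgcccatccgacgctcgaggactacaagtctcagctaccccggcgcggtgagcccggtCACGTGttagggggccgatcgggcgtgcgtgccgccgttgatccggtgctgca
Mxd4: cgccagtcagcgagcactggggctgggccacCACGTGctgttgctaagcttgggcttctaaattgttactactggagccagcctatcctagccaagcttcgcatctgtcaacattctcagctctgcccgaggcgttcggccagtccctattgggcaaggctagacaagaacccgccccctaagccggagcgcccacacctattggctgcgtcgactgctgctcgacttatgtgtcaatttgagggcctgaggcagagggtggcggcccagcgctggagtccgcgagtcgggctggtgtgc
Mnt: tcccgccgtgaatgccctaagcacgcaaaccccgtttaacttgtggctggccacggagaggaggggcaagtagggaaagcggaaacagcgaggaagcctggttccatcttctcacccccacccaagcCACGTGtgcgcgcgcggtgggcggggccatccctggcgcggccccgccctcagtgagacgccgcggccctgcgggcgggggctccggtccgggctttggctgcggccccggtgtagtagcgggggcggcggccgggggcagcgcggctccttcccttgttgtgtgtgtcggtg
The first base of the E-box lay 3 bases upstream of the start in Max, so that the element spans the start, 219 bases upstream in Mxd4 and 123 bases upstream in Mnt. A match describes the letters of the window and does not show that a protein binds there. The map of promoter windows shows these positions beside the windows without a match.

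**Figure D1:**
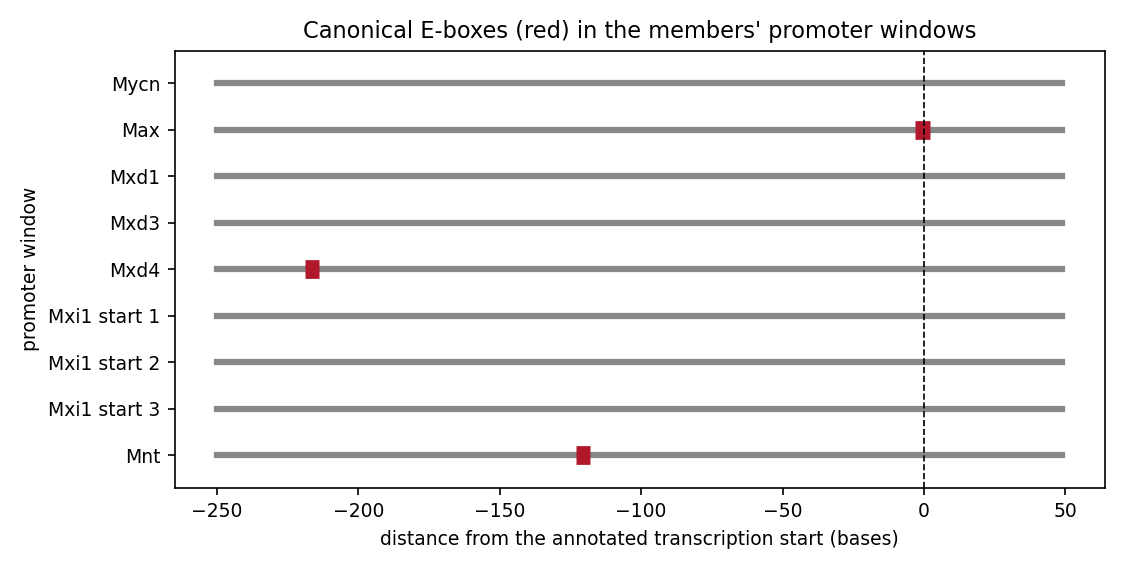
Positions of the canonical E-box in the promoter windows of the network members, in bases from the annotated start (dashed line), with each window as a grey bar and each E-box in red. Of the 9 windows 3 hold an E-box, at 3 bases upstream in Max, 219 in Mxd4 and 123 in Mnt.

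Signals are MAS5 intensities on a linear scale, scaled by the authors to a common mean per array. Signals of different probe sets were not ranked against each other, because probes differ in affinity, so the members have no order of levels. An expression floor was set on each array at the 90th percentile of the signals of 47 genes that mark other tissues (79 probe sets), such as liver, brain or testis, which put it at 148 on replicate 1 and 106 on replicate 2. A probe set below it was not distinguished from background. Between the samples, log2 signals had a pooled SD of 0.63, or 1.55-fold, over 5761 probe sets above both floors. On replicate 2 the 3′ to 5′ signal ratio of the control mRNAs was higher, at 3.57 on replicate 1 and 8.15 on replicate 2 for Actb, and 1.31 and at least 7.77 for Gapdh, whose 5′ signal lay below the floor of replicate 2 and was set to it. Of 9 measured B cell markers 8 exceeded both floors. The other was Pax5, a B lineage transcription factor, with signals of 21.5 and 15.6. Cd79a, which encodes a signalling chain of the antigen receptor, read 2931 on replicate 1 and 192 on replicate 2, so a B lineage marker also set the samples apart. It was the 1 of the 8 over 2-fold higher on replicate 1, while 2 were over 2-fold higher on replicate 2. The shares of all genes above both floors were 8.93% and 15.5%. The median log2 difference of the 8, replicate 1 minus replicate 2, was -0.47. Counts above the floor on both arrays were 0 of 10 T cell markers, 0 of 11 markers of NK cells, erythroid cells and platelets, 5 of 13 myeloid markers and 3 of 8 markers of plasma and germinal centre cells. Of all genes 31.2% were above both floors. The 5 myeloid genes included Csf1r, a macrophage receptor, at 286 and 249, and the neutrophil genes Ngp, at 327 and 187, and S100a8, at 164 and 449.9 (replicates 1 and 2). Other probe sets of Csf1r, at 23.2 and 96.7 and at 208.6 and 15.2, were each below the floor on at least 1 array. With the 95th percentile in place of the 90th as floor, the myeloid count was 3, and the share over all genes at that floor was not computed.

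Most of the network lay below the floor in these cells. Of the 17 member probe sets 1 was above the floor on both arrays, against 25.5% of all gene probe sets, and it belonged to Mnt. With the Mnt probe set included, 3 were above it on replicate 1, against 36.6% of all gene probe sets, and 3 on replicate 2, against 36.5%. On neither array above the floor were 12 member probe sets, against 52.4% of all gene probe sets. By gene, Mnt was above the floor on both arrays, Mxd4 on each array by different probe sets, and Myc on replicate 1 only, so that 1 of 8 members met the criterion on both arrays by the same probe set, against 31.2% of all genes. Mycn, Max, Mxd1, Mxd3 and Mxi1 had no probe set above the floor on either array. With the array median as the floor, at 103 and 66.6, 5 probe sets of 5 members were above it on both arrays. Each median has as many gene probe sets above it as below. Of the 17 member probe sets, 8 exceeded that of replicate 1 and 7 that of replicate 2. The share of all gene probe sets above both medians was not computed. Member probe sets had median signals of 74.1 and 62.5 on replicates 1 and 2, beside 103 and 66.6 for all gene probe sets.

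**Figure D2:**
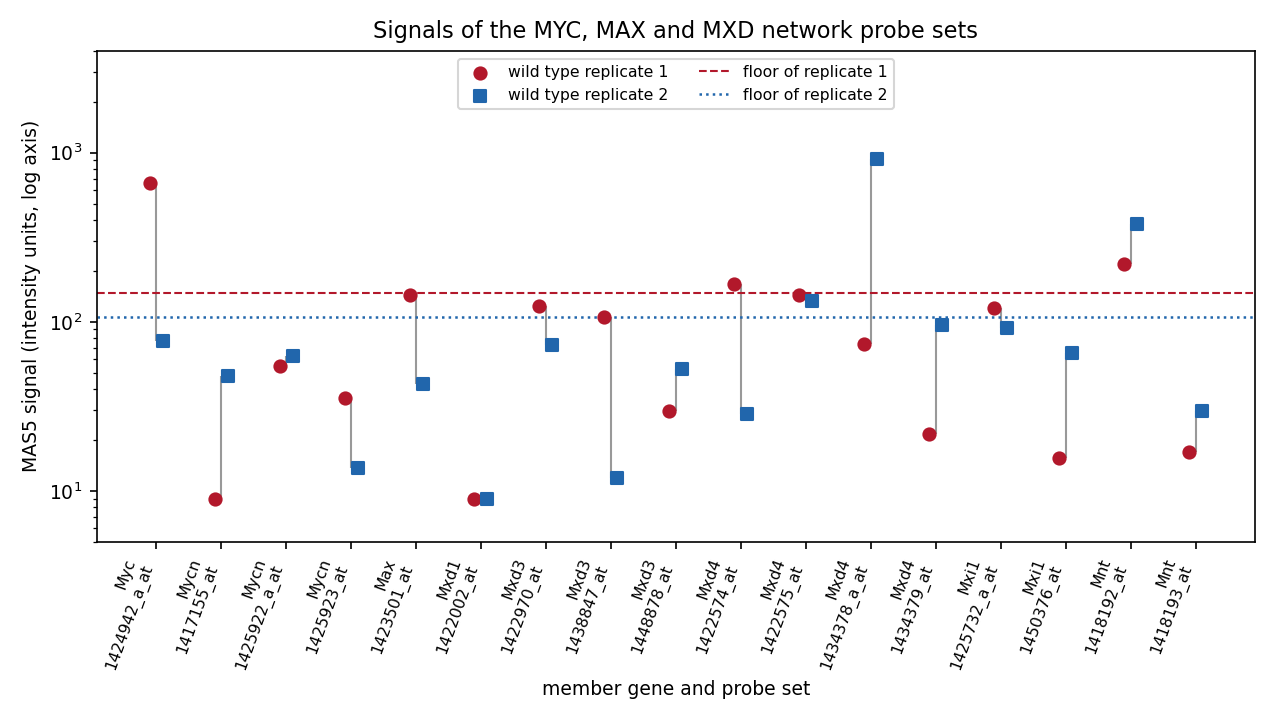
MAS5 signal (log axis) of each of the 17 member probe sets on replicate 1 (red circles) and replicate 2 (blue squares) of the wild-type cells, 1 point per array, with the floor of each array as a dashed or dotted line. Only the first Mnt probe set lies above both floors, Myc is above the floor on replicate 1 alone, and 1 of the 4 Mxd4 probe sets is far above the floor of replicate 2.

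Myc, the activator of the network, was above the floor in a single sample. Its only probe set, 1424942_a_at, read 661 on replicate 1 and 77.3 on replicate 2. The 2 samples averaged 369 ± 413 (SD, n = 2). The first value was 4.46 times the floor of its array, and the second was 0.728 times that of its own. The signal was therefore 8.55-fold higher on replicate 1 as measured, and at least 6.22-fold higher with replicate 2 set to its floor. In log2 units the difference, replicate 1 minus replicate 2, was 3.10, while the central 95% of probe sets in the same decile of mean signal ran from -1.98 to 1.77. Within that decile 0.575% of probe sets were at least as far apart in either direction. The direction was the same after quantile normalization, with 3.09, after median centring, with 2.46, and with 32 added to each signal, with 2.66. The gene is measured by 1 probe set, so no second reading of the same transcript was at hand. The control 3′ to 5′ ratios given above were higher on replicate 2, and their part in the difference was not tested.

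Immediate early genes, a class to which Myc belongs, were also higher on replicate 1. Of 20 measured genes of that class 13 exceeded both floors, against 31.2% of all genes. Of the 13, 12 were over 2-fold higher on replicate 1, against 8.93% of all genes above the floor on both arrays. Klf6, one of the 12, was counted through another of its probe sets and was below the floor of replicate 2 by its brightest, and it is named here after its values were seen. The other gene was Ier5, which read 1893 and 1420 (replicates 1 and 2) by its brightest probe set. The AP-1 subunit gene Fos read 11856 and 593, its partner Jun 3029 and 136, and Jund, a further AP-1 subunit, 4143 and 2011. Nr4a1, a nuclear receptor gene that antigen receptor signals induce, read 3963 and 135. The median log2 difference of the 13 genes was 2.83, beside -0.09 over all genes above the floor on both arrays and 3.10 for Myc. Quantile normalization gave 13 of 13 over 2-fold higher on replicate 1, and median centring 9 of 13. Under these scalings the shares over all genes were not computed. These genes carry a pattern already known from earlier results of these data, so their list is no independent support for the value of Myc.

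Mycn, the MYC paralogue best known from neural progenitors and neuroblastoma, stayed below the floor by all 3 of its probe sets. Probe set 1417155_at read 8.90 on replicate 1 and 47.7 on replicate 2, 1425922_a_at read 54.5 and 62.5, and 1425923_at read 35.5 and 13.7. All 3 differences were inside the central 95% of their decile of mean signal.

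Max, the common partner of the other members, was measured by a single probe set, 1423501_at. It read 144 on replicate 1, which was 0.972 times the floor, and 42.9 on replicate 2, which was 0.404 times the floor. The log2 difference of 1.75 was inside the range from -2.75 to 3.37 that held 95% of probe sets of like signal. A level above background was thus not detectable for Max on either array with this probe set, which does not show that the transcript is absent.

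Among the repressors, Mxd1, which encodes the protein first known as MAD1, was far below the floor. Its only probe set, 1422002_at, read 9 on both arrays. Mxd3, which unlike the other MXD genes has been linked to dividing cells, was read by 3 probe sets, all below the floor. Probe set 1422970_at read 123 on replicate 1 and 73.3 on replicate 2, 1438847_at read 107 and 12.0, and 1448878_at read 29.8 and 52.7. All 3 differences were inside the central 95% of probe sets of like signal. Mxi1, a repressor closely related to MXD1, gave 120 and 91.6 by probe set 1425732_a_at and 15.6 and 65.3 by 1450376_at, again without a value above the floor.

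Mxd4, a repressor best known from differentiating cells, was the member whose probe sets spread widest, with log2 differences from -3.64 to 2.55. Probe set 1434378_a_at read 74.1 on replicate 1 and 921 on replicate 2. The 2 samples averaged 498 ± 599 (SD, n = 2). It was below the floor on the first array and 8.68 times the floor on the second. That made it 12.4-fold higher on replicate 2, or at least 6.21-fold with replicate 1 set to its floor. Its log2 difference of -3.64 lay outside the central 95% of its decile of signal, from -1.98 to 1.77, where 0.177% of probe sets were at least as far apart. Probe set 1434379_at, designed on the same sequence, read 21.8 and 95.2 and was below the floor on both arrays.

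The remaining pair of Mxd4 probe sets, designed on a different sequence, did not show a higher signal on replicate 2 as deposited. Probe set 1422574_at read 166.5 on replicate 1 and 28.5 on replicate 2, the second below the floor, which made it at least 1.57-fold higher on replicate 1. Probe set 1422575_at read 143 and 132, within 2-fold, and passed the floor of replicate 2 alone. Its log2 difference was 0.11 as deposited, -0.34 after quantile normalization and -0.52 after median centring, so its direction depended on the scaling. That of 1422574_at was 1.94 after quantile normalization and 1.91 after median centring. The mean log2 difference over the 4 probe sets was -0.78, against -3.64 by the brightest. With signals below the floor set to it, only 1434378_a_at of the 4 differed by over 2-fold. Which transcripts the probe sets detect was not analysed here, and the part of the higher control 3′ to 5′ ratios on replicate 2 was not tested.

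Mnt, the broadly expressed repressor of the network that also recruits SIN3, was the member measured above the floor in both samples. Probe set 1418192_at read 219 on replicate 1 and 380.1 on replicate 2, which were 1.48 and 3.58 times the floors. The mean was 299.5 ± 114 (SD, n = 2), and the signals were 1.74-fold apart, with a log2 difference of -0.80 inside the range from -1.98 to 1.77 for its decile of signal. The second probe set, 1418193_at, designed on the same sequence, read 16.9 and 29.8. It stayed below the floor on both arrays and gives no second reading of the difference. Median centring brought the difference of the first to -1.43, and quantile normalization gave -0.81.

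Probe sets of the same member did not always read higher on the same array, and most of them were below the floor. Of the 5 members with several probe sets, the higher array differed between probe sets for all but Mnt as deposited. It differed for 3 under quantile normalization and under median centring. How often it differs over all genes with several probe sets was not computed. Every probe set of Mycn, Mxd3 and Mxi1 was below the floor on both arrays, where a direction is not distinguished from background. In 2 of the 5, Mycn and Mxd4, one probe set was over 2-fold higher on replicate 1 and another over 2-fold higher on replicate 2, against 20.3% of the 4956 genes with several probe sets. Under quantile normalization and under median centring these were Mxd3 and Mxd4, and with 32 added to each signal Mxd4 alone. Without a floor, 5 member probe sets exceeded 2-fold in favour of replicate 1 and 4 in favour of replicate 2, against 34.5% and 19.3% of all gene probe sets. The median log2 difference was 0 over the 17 member probe sets and 0.33 over all gene probe sets. Quantile normalization gave 4 and 6 member probe sets over 2-fold higher on replicates 1 and 2, beside 5705 and 5901 of all 22626. Median centring gave 4 and 7, beside 5302 and 7331 of all. With probe sets outside the central 95% of their decile making up 5.04% of the table, 2 of the 17 members, Myc and the brightest Mxd4 probe set, were outside theirs.

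**Figure D3:**
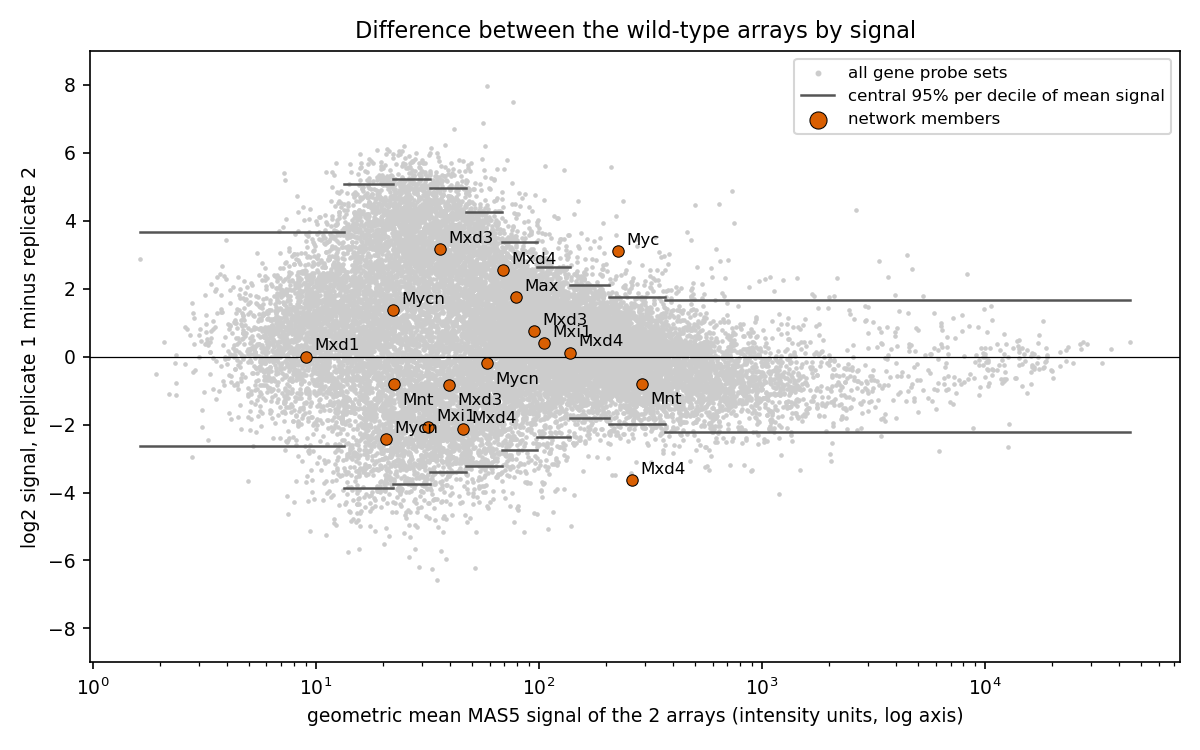
Log2 signal of replicate 1 minus replicate 2 against the geometric mean signal (log axis) for all 22626 gene probe sets (grey) and the 17 member probe sets (orange), with grey lines at the central 95% of each decile of mean signal. Myc at 3.10 and one Mxd4 probe set at -3.64 lie outside the lines, and the other 15 lie inside.

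Further partners of MAX and of its relative MLX were measured in part. Of 6 other leucine zipper proteins that pair with MAX or MLX, 2, Mlx and Mlxip, exceeded both floors, against 31.2% of all genes. Mlx, the MAX-like protein that also pairs with MXD1 and MXD4, read 201 and 199, and Mlxip, its glucose-sensing partner also called MondoA, 343 and 362 (replicates 1 and 2). Each stood within 2-fold between the samples. The second Mlx probe set, at 56.4 and 15.8, was below the floor on both arrays.

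Coactivators and other cofactors of MYC were above the floor in 10 of 15 measured genes, against 31.2% of all genes. All 10 were within 2-fold as deposited, beside 2920 of the 3863 genes above the floor on both arrays. Median centring, which lowered every difference by 0.63, put 4 of the 10 over 2-fold higher on replicate 2. The share over all genes under that scaling was not computed. Supt5, an elongation factor, read 685 and 1118, Ep400, an ATPase of the acetyltransferase complex that MYC recruits, 375 and 543, and Cdk9, the elongation kinase, 350.5 and 537. Zbtb17, which encodes the MYC-binding protein MIZ1, read 276 and 152, and Hcfc1, a host cell factor that binds MYC, 274 and 519. Their median log2 difference was 0.01, beside -0.09 over all genes above the floor.

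The corepressor that MXD proteins and MNT recruit was measured in most of its subunits. Of 12 measured subunits 10 were above the floor on both arrays, against 31.2% of all genes. Of the 10, 3 were beyond 2-fold in favour of replicate 2 and 0 in favour of replicate 1, against 15.5% and 8.93% of all genes above both floors. Median centring, which lowered every difference by 0.63, turned the 3 into 7, and quantile normalization left 3. For neither scaling was a share over all genes computed. The scaffold genes Sin3a and Sin3b, named after their values were seen, read 149 and 264.5, and 316 and 693, by their brightest probe sets. Hdac1, the histone deacetylase, read 428 and 661. The histone-binding subunit genes Rbbp4 and Rbbp7 read 624 and 2668, and 609.9 and 2002.5, by probe sets of the _x_at class, whose probes may hybridize to other transcripts. Other probe sets of Rbbp4 were below the floor on at least 1 array, at 139 and 162 and at 235 and 81.9, and the other of Rbbp7 read 586 and 953. Averaged over all probe sets of a gene, a 2-fold excess on replicate 2 was left for 1 corepressor gene. No share over all genes was computed for that average, and the median difference of the list was -0.56 in place of -0.73.

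Regulators of MYC protein stability were above the floor in 10 of 17 cases, against 31.2% of all genes. Pim3, a kinase of the family that phosphorylates MYC, read 862 and 894, Ppp2ca, the catalytic subunit of the phosphatase that acts on MYC, 782 and 913.5, and its regulatory subunit gene Ppp2r5a 424 and 529.6, each by its brightest probe set. Another probe set of Ppp2ca above both floors gave 465 and 1201, and others of Pim3 gave 311 and 79.7, and 93.9 and 12.1. Usp36, a nucleolar deubiquitinase of MYC, read 158 and 266. Pim1, the kinase gene that is itself induced by stimulation, was the 1 gene of the 10 over 2-fold apart by the brightest probe set, with 503 on replicate 1 and 117 on replicate 2. By its other probe set, likewise above both floors, it gave 196 and 169. The other 9 genes were within 2-fold by the brightest probe set, as were 2920 of all 3863 genes that passed both floors. Averaged over all probe sets, 2 of the 10 exceeded 2-fold in favour of replicate 1 and 2 in favour of replicate 2. For that average a share over all genes was not computed.

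Listed targets of MYC were counted against the same floor. Of 19 genes of ribosome synthesis 17 were above the floor on both arrays, against 31.2% of all genes. With the 95th percentile as floor the count was 9 of 19, for which no share over all genes was computed. Of the 17 genes, 15 lay within 2-fold, beside 2920 of the 3863 genes above the floor on both arrays. Npm1, a nucleolar chaperone gene, read 1737 and 1939, and Gnl3, which encodes nucleostemin, 821 and 644. Fbl, the ribosomal RNA methyltransferase fibrillarin, was 2.10-fold higher on replicate 1, with 790 and 377, and Nop56, a component of the same particles, 2.08-fold higher on replicate 2, with 342 and 710.4. The other Fbl probe set also read higher on replicate 1, with 714 and 139. The list median was 0.19, beside 3.10 for Myc, and it was -0.07 after quantile normalization and -0.44 after median centring.

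Of 30 MYC targets of metabolism, translation and the cell cycle 25 were above the floor on both arrays, against 31.2% of all genes. Of the 25, 3 were beyond 2-fold in favour of replicate 1 and 7 in favour of replicate 2. The shares over all genes that passed the floor on both arrays were 8.93% for replicate 1 and 15.5% for replicate 2. Nme2, a nucleoside diphosphate kinase gene, read 3029 and 4615, Eif5a, a translation factor gene, 1453 and 1335, and the chaperonin gene Cct5 859.5 and 1819. Larger differences were read for the glycolytic gene Pgk1, with 371 and 1938, and for Nme1, with 272 and 1121, each by its brightest probe set. Other probe sets above the floor gave 355 and 387 for Pgk1, and 313 and 443 for Nme1. After quantile normalization 3 genes were over 2-fold higher on each array, and after median centring 0 on replicate 1 and 11 on replicate 2. Median centring lowered every difference by 0.63, and shares over all genes under either scaling were not computed.

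Genes that MYC is known to repress were above the floor in 3 of 12 cases, against 31.2% of all genes. With the array median as floor the count was 5, for which no share over all genes was computed. Btg1, an antiproliferative gene of quiescent lymphocytes, read 2351 and 3096, and Hes1, a Notch target, 309 and 154. The other probe set of Btg1, likewise above both floors, gave 988 and 3256.5. Btg2, a relative of Btg1 that also stands in the immediate early list, read 721 and 152, while its other probe set gave 233 and 338. With the 95th percentile as floor 1 of 17 proliferation genes passed on both arrays, and no share over all genes was computed there. With the main floor 4 of the 17 passed on both arrays, against 31.2% of all genes. All 4 belong to DNA replication. These were Pcna, the polymerase clamp, with 1146 and 932, and the helicase subunit genes Mcm2, with 186 and 214, Mcm5, with 191 and 169, and Mcm6, with 167 and 116.

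**Figure D4:**
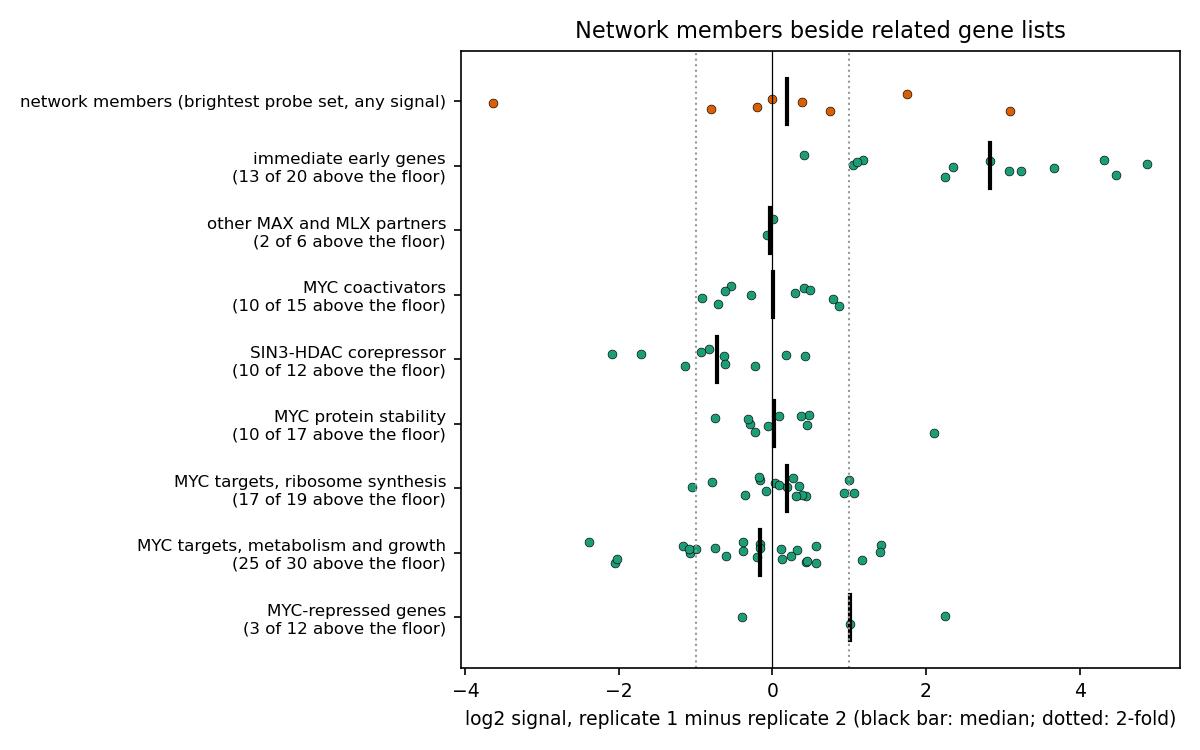
Log2 signal of replicate 1 minus replicate 2 for the 8 network members by their brightest probe set, at any signal (orange), and for genes of related lists that were above the floor on both arrays (green), 1 point per gene, with list medians as black bars and 2-fold as dotted lines. The immediate early genes sit to the right of the other lists with a median of 2.83, and the members spread from -3.64 for Mxd4 to 3.10 for Myc.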

How the data were processed

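Per the labels' protocols, 6 µg of total RNA was converted to biotinylated cRNA with the array maker's protocol. The deposited values are signal intensities, computed by the authors with MAS5 per the submitters' processing notes, with no version or parameters given. MAS5 gives 1 signal per probe set and scales each array by 1 factor. With 2% trimmed from either end, the mean signal was 149.9 for replicate 1 and 149.7 for replicate 2.

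Of 22690 probe sets, 64 control probe sets were used only for 3′ to 5′ ratios. Gene names came from the platform's annotation table. Of the other 22626 probe sets, 20380 named 1 gene and were used for genes, 691 named several and 1555 were unnamed here. Each gene took the values of its brightest probe set, by mean log2 signal, and passed the floor if any of its probe sets passed it on both arrays. In 28 of 3863 such genes the brightest was not. Log2 differences, replicate 1 minus replicate 2, were taken with no added normalization, and fold values carry no pseudocount. No counts lie behind the values, and precision is limited by the number of arrays, 2, and by low signal. Detection calls were not used. Members and gene lists were chosen with earlier results of these data known. The named genes are all members and, of each of 15 related or marker lists, up to 3 with the highest mean and up to 2 with the largest difference above the floor on both arrays. For the marker lists only counts are given, except where a value is stated. One list, of other E-box factors, was added later. Alternatives were the 95th percentile and the array median as floor, quantile normalization, median centring, log2(signal + 32), omission of the _x_at probe sets and the mean over probe sets. The calculations were tested on simulated data and run in Python 3.11.15 with pandas 2.3.3 and numpy 2.4.6.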

Additional observations from a re-analysis of the deposited data

How the results depend on the processing

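The finding that most members lie below the floor depends on where the floor is set. With the array median as floor, 5 probe sets and 5 member genes were above it on both arrays, in place of 1 and 1. The shares over all probe sets and genes at that floor were not computed. The median difference of these 5 probe sets was 0.39, in place of -0.80. The 95th percentile, at 211 and 140.3, left 1 probe set, and the share over all probe sets was not computed there either. A floor without Mbp, the brightest gene of the other-organ list, was chosen after seeing the data and also left 1. With the mean over probe sets 0 member genes were above the floor on both arrays, since the dim probe set of Mnt lowers its mean. On either array alone 3 of the 17 member probe sets were above the floor. The shares over all gene probe sets were 36.6% on replicate 1 and 36.5% on replicate 2. By gene, replicate 1 alone had 3 of 8 members above its floor, beside 5553 of all 12393 genes. Replicate 2 alone had 2 of 8, beside 5329 of all. Of the 3 members over 2-fold apart by the brightest probe set, Myc, Max (below the floor on both arrays) and Mxd4, 0 were among the genes above the floor on both arrays, a restriction chosen after seeing the data. A change of floor cannot alter a gene's difference, and median centring lowered every one by 0.63. The differences that moved by more than the pooled SD were those of Mycn and Mxd1 under quantile normalization, at -0.92 and -0.81, and Mxd4 and Mxi1 with the mean over probe sets, at -0.78 and -0.84. Of 30 list counts 9 moved by over 1.5 times, among them ribosome synthesis targets, with 9 genes above the 95th percentile floor in place of 17, and immediate early genes, with 8 in place of 13. Shares over all genes were not computed at the alternative floors, and beyond the height of the floor the cause was not tested. No member probe set is of the _x_at class, so its omission left the members as they were. The median of all gene probe sets was 0.33 as deposited, -0.04 after quantile normalization and -0.30 after median centring. No paired analysis was possible because there is 1 group and the labels carry no replicate numbers. Probe sets near or below the floor limit what can be said of Mycn, Max, Mxd1, Mxd3 and Mxi1.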

Other observations

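Other factors that bind the same E-box, a list added after the files were seen, passed the floor in both samples for 2 of 9 genes. Usf2, a ubiquitous upstream stimulatory factor, read 554 on replicate 1 and 121 on replicate 2 from the brighter probe set, and its other probe set, likewise above both floors, gave 194 and 221.5. Bhlhe40, a repressor induced by lymphocyte activation, read 235.5 and 177 and lay within 2-fold. Against this, 31.2% of all genes were above the floor on both arrays.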
